A study of Mus musculus with 7 samples.

Results

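The small proline-rich (Sprr) genes encode short proteins that are cross-linked into the cornified envelope, the protein shell that replaces the plasma membrane of a keratinocyte as it becomes part of the skin surface. All rows of the deposited expression table whose gene name begins with Sprr were taken, which gave 15 of the 7091 genes listed: Sprr1a, Sprr1b, Sprr4 and 12 genes of the Sprr2 group. They lie side by side on chromosome 3. Of the 18 symbols of the mouse family looked for, Sprr3, Sprr5 and the pseudogene Sprr2c-ps were not analysed here. The table lists only genes for which the authors found an adjusted p-value under 0.05 between the groups, so that every gene in it differs between KA and control by selection.

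RNA was sequenced from epidermis separated from telogen (resting phase) skin of 7 mice. KA mice carried K14-CreERT, a tamoxifen-dependent recombinase driven by the keratin 14 promoter of basal keratinocytes, with a conditional knockout of Abca12, a lipid transporter needed for the lipid layers of the skin barrier. Controls had the genotype ABCA12-c/c and no CreERT. Both groups were given tamoxifen at 8 weeks of age, in 3 daily doses of 1 mg for every 40 g the animal weighed, and epidermis was taken 2 weeks later, so the deletion and the presence of an active recombinase cannot be told apart. There were 3 control libraries (controls 1 and 3 female, control 2 male) and 4 KA libraries (KA 1 and KA 2 male, KA 3 and KA 4 female), each from a different animal. Abca12 itself was not analysed here, and the genotypes are those of the labels.

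The listed genes held 9590718 to 12761458 reads per library, which is a part of each library and not its depth. Of the 4 keratinocyte markers looked for, Krt14, Krt5 and Krt1 were listed, and their summed level was 375357 to 428053 normalised reads in controls and 949086 to 1034946 in KA. None of the 5 dermal fibroblast, 3 muscle and 3 adipocyte markers was listed. Of 7 markers of neutrophils and myeloid cells, Cd68, Cxcr2 and Lyz2 were listed, with sums of 131 to 169 normalised reads in controls and 333 to 575 in KA. These did not move alike: Cxcr2 and Lyz2 were higher and Cd68 was lower in KA. The 4 Langerhans cell markers summed to 18177 to 25308 in controls and 35141 to 51419 in KA, and 4 of 5 T-cell markers, 2 of them higher and 2 lower, to 771 to 1097 and 637 to 721. Of sebocyte, endothelial and melanocyte markers, 3 of 4 (35321 to 45084 in KA against 19438 to 27633), 1 of 3 (34.5 to 55.4 against 11.4 to 17.6) and 1 of 4 (52.9 to 117 against 102 to 205) were listed. The part of these cell types in the values below was not tested. In bulk tissue, more cells of a type and more RNA per cell cannot be told apart.

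SPRR proteins consist of a head and a tail that transglutaminases join to other envelope proteins, with short proline-rich repeats between them. They are known as stress proteins of stratified epithelia: SPRR1 and SPRR2 levels rise after wounding, ultraviolet light and barrier damage, and the genes form a block within the epidermal differentiation complex, next to the genes for loricrin, involucrin and the late cornified envelope proteins. AP-1, Ets and POU family transcription factors are known to act on the promoters of human members.

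The coding sequences show how alike the genes are, which decides how far their reads can be separated. In the coding sequence of 12 members, leaving out Sprr4 (17.1%), Sprr2g (14.3%) and Sprr2j-ps (9.17%), between 30.7% (Sprr1b) and 42.6% (Sprr2h) of the codons were CCN, the codons of proline. The value of Sprr2g is for a frame read straight from its ATG over 232 bases, no multiple of 3. Sprr2a1 and Sprr2a2 had identical coding sequences, and Sprr2a3 was 98.8% identical to both. Sprr2e and Sprr2i were 96.9% identical, and the 36 pairs among Sprr2b to Sprr2k ranged from 53.4% to 96.9%. The 3 coding sequences below, from GENCODE M21 on GRCm38, are those of the gene with the largest rise (Sprr2d, chr3:92340254-92340508, plus strand), of its neighbour Sprr2e (chr3:92352864-92353091, plus strand) and of Sprr2a1 (chr3:92219092-92219340, plus strand). Capitals mark bases inside a stretch of 50 bases that a transcript of another gene repeats exactly.
Sprr2d: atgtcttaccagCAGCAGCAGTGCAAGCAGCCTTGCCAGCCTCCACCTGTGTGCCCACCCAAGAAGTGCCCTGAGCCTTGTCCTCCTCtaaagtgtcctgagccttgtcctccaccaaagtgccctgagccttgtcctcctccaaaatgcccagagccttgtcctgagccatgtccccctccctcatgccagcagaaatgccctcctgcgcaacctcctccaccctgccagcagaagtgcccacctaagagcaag
Sprr2e: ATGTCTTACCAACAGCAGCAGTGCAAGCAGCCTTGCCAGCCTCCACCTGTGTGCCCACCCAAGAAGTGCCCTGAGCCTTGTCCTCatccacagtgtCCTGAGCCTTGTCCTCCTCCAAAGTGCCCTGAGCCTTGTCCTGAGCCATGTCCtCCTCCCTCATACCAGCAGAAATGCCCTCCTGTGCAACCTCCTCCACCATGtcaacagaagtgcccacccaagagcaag
Sprr2a1: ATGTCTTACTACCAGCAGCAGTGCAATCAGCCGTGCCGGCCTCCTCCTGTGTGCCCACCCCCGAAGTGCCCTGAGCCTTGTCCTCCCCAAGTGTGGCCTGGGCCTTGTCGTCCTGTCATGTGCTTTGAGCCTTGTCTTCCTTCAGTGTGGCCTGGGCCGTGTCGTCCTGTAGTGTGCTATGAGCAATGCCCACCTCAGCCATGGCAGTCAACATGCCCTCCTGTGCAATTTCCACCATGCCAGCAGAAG
Capitals covered 76 of 255 bases in Sprr2d, 188 of 228 in Sprr2e and every base in Sprr2a1. Over whole transcripts, 92.5% of the 100-base windows of Sprr2a1, 92.8% of those of Sprr2a2 and 36.2% of those of Sprr2a3 occurred in another gene, against at most 1.16% in the other 12 members. The annotated exons of Sprr2a1 and Sprr2a2 also share 43 bases in the annotation. How the authors treated reads that match several genes is not given in the sources used here, so the division of reads among Sprr2a1, Sprr2a2 and Sprr2a3 is uncertain and their sum is given beside them.

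Values are the authors' normalised reads, each a read count divided by a size factor of its library. All 15 genes were higher in KA, and in all 15 every KA library lay above every control. The background for that count is 48.8% of the listed genes, and since all of them were chosen on this same contrast nothing is read from it. In the count model, 14 of the 15 genes had enough reads and all 14 passed as higher (edgeR's quasi-likelihood test, Benjamini-Hochberg adjusted p under 0.05), where 6746 of the 6749 genes tested (100%) passed in either direction and 52.7% passed as higher. In the authors' own adjustment, 36.5% of 19407 genes passed. The members differ from the rest of the table in size: the median log2 ratio of KA to control means, with controls set to no less than a floor of 3 counts per library, was 4.60 over the 15 genes and 0.36 over all listed genes. A ratio of at least 8 was reached by 12 of the 15 members and by 2.98% of the listed genes. Among all 7091 listed genes, Sprr2d had the ninth and Sprr1b the tenth highest ratio.

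**Figure D1:**
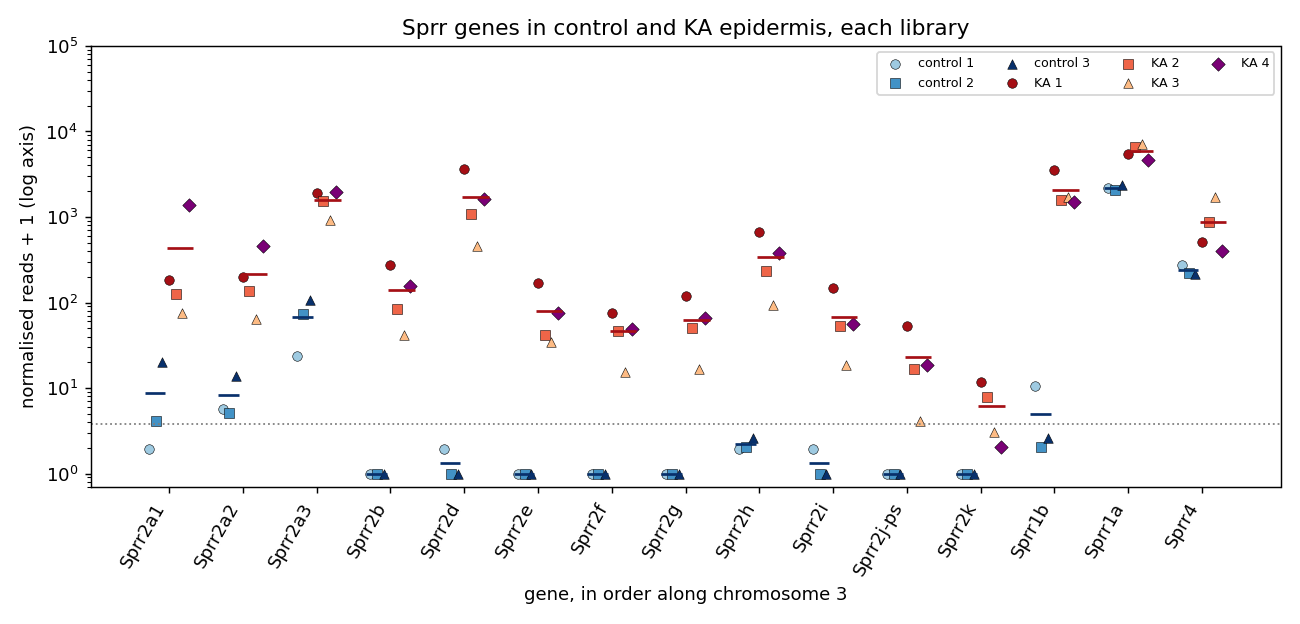
Normalised reads plus 1 (log axis) of the 15 Sprr genes in order along chromosome 3. Each point is a library, bars are group means, and the dotted line is the floor of 3 counts in a control library (2.78 normalised reads). Control points of Sprr2b to Sprr2k lie at or under the floor, while Sprr1a and Sprr4 were already present in controls.

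Sprr1a and Sprr4 were the members with clear expression in control epidermis. Sprr1a (ENSMUSG00000050359, chromosome 3, 92483952 to 92485895, minus strand), a main cross-bridging protein of the envelope, had 2185, 2045 and 2371 normalised reads in the 3 controls in order, against 5462, 6548, 7155 and 4616 in the KA libraries. Controls lay close together and the lowest KA library stood well above them. The means were 2200 ± 163 (SD, n = 3) and 5945 ± 1130 (SD, n = 4), which is 1.43 on the log2 scale (± 0.16 SE, adjusted p = 5.07e-05 by the edgeR quasi-likelihood test). Sprr4 (ENSMUSG00000045566, chromosome 3, 92500263 to 92500493, minus strand) had 275, 220 and 217 in controls and 512, 878, 1707 and 399 in KA. Its rise was uneven, with KA 3 far above KA 1 and KA 4. The means were 237 ± 32.7 (SD, n = 3) and 874 ± 592 (SD, n = 4), which is 1.88 on the log2 scale (± 0.48 SE, adjusted p = 0.00584 by the edgeR quasi-likelihood test). Among females alone (2 against 2) Sprr4 no longer passed, at 2.10 and an edgeR adjusted p of 0.055.

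Sprr1b was nearly silent in controls and abundant in KA. Sprr1b (ENSMUSG00000048455, chromosome 3, 92436809 to 92438789, minus strand) is 78.4% identical to Sprr1a in its coding sequence, yet shared no 50-base window with another gene, so its reads can be told from those of Sprr1a. Controls held 10, 1 and 2 counts, or 9.47, 1.03 and 1.60 normalised reads. KA 1 to KA 4 held 3544, 1572, 1708 and 1490 normalised reads. KA 1 stood apart from the other KA libraries, which lay close together. The ratio of the means was 515, and the log2 fold change was 8.98 (± 0.62 SE, adjusted p = 1.16e-05 by the edgeR quasi-likelihood test). Without control 1, which held 10 of the 13 control counts, it was 10.46 (edgeR adjusted p = 7.6e-05).

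The 9 genes from Sprr2b to Sprr2k were at or under 3 counts in every control. Sprr2d (ENSMUSG00000042212, chromosome 3, 92339140 to 92340873, plus strand) held 1, 0 and 0 counts in the controls, against 3652, 958, 436 and 1579 in the KA libraries. In normalised reads the KA libraries were at 3612, 1079, 455 and 1639, with KA 1 highest and KA 3 lowest. The ratio of counts per size factor was 5678, with an exact 95% interval of 1019 to 224300 that covers counting error only, and the KA mean was 610 times the floor of 3 counts per control library. Sprr2h (ENSMUSG00000046259, chromosome 3, 92385685 to 92387324) held 1, 1 and 2 control counts and 667, 230, 91.9 and 379 normalised reads in KA. Its ratio of counts was 285 (exact 95% interval 111 to 1048), and its KA mean was 123 times the floor. Sprr2i (ENSMUSG00000042157, chromosome 3, 92407991 to 92409271) held 1 count in control 1 and none in the others, against 145, 51.8, 17.8 and 55.0 normalised reads in KA. Its KA mean was 24.3 times the floor, and its ratio of counts, which rests on a single read of control 1, was 225 (exact 95% interval 40.1 to 8936).

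Controls held no read at all of the other 6 genes of this group, so each rise is a lower bound against a floor of 3 counts in every control library. Sprr2b (ENSMUSG00000050092, chromosome 3, 92316620 to 92318085) was at 274, 82.2, 40.7 and 157 normalised reads in KA 1 to KA 4, at least 49.8-fold higher. Sprr2e (ENSMUSG00000055030, chromosome 3, 92352143 to 92353449) was at 170, 40.6, 33.4 and 73.7, at least 28.6-fold higher. Both had KA 1 highest and KA 3 lowest. Sprr2g (ENSMUSG00000046203, chromosome 3, 92373915 to 92375229), which the annotation calls a polymorphic pseudogene, was at 117, 49.6, 15.7 and 65.4, at least 22.2-fold higher. Its annotated coding span of 232 bases is no multiple of 3 and holds 2 stop codons when read straight from its ATG. Sprr2f (ENSMUSG00000050635, chromosome 3, 92365187 to 92366442) was at 74.2, 45.1, 14.6 and 47.8, at least 16.3-fold higher. Sprr2j-ps (ENSMUSG00000027925, chromosome 3, 92418082 to 92419396), a pseudogene by its symbol but protein coding in the annotation, was at 52.4, 15.8, 3.13 and 17.6, at least 8.00-fold higher. Sprr2g and Sprr2j-ps thus held reads in the same libraries as their coding neighbours.

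Sprr2k (ENSMUSG00000054215, chromosome 3, 92432582 to 92433925), the last Sprr2 gene before Sprr1b, was the weakest member. It held 11, 6, 2 and 1 counts in KA 1 to KA 4 and none in controls. Its KA mean was 1.87 times the floor, but KA 3 and KA 4, at 2.09 and 1.04 normalised reads, lay under the floor of 2.78. Sprr2k did not pass the filter on low counts. The adjusted p-values of the 8 tested genes from Sprr2b to Sprr2j-ps ran from 0.000109 (Sprr2d) to 0.00353 (Sprr2j-ps) by edgeR's quasi-likelihood test. The fitted fold changes of these genes depend on the small count added to zeros and are not given as sizes.

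The 3 Sprr2a genes rose from a low but measurable control level. Sprr2a3 (ENSMUSG00000074445, chromosome 3, 92285417 to 92291405, plus strand) had 22.7, 73.2 and 105 normalised reads in controls and 1913, 1544, 922 and 1979 in KA. The groups were far apart, and the log2 fold change was 4.55 (± 0.49 SE, adjusted p = 9.34e-05 by the edgeR quasi-likelihood test). Sprr2a2 (ENSMUSG00000068893, chromosome 3, 92215920 to 92256724) had 4.73, 4.12 and 12.8 in controls and 196, 136, 62.7 and 458 in KA, which is 4.81 on the log2 scale (± 0.79 SE, adjusted p = 0.000694 by the edgeR quasi-likelihood test). Its fold change was 4.12 without KA 4 and 5.55 without control 3 (edgeR adjusted p = 0.00023 and 0.00269). Sprr2a1 (ENSMUSG00000078664, chromosome 3, 92215799 to 92221911) had 0.947, 3.09 and 19.2 in controls and 183, 124, 75.2 and 1364 in KA. A single library, KA 4, thus carried most of the KA signal of Sprr2a1. Its log2 fold change was 5.69 (± 1.39 SE, adjusted p = 0.00507 by the edgeR quasi-likelihood test), 3.94 without KA 4 (edgeR adjusted p = 0.00141) and 7.70 without control 3 (edgeR adjusted p = 0.0138). Among females alone it did not pass, at 6.07 (edgeR adjusted p = 0.104). The sum over the 3 genes does not depend on how reads were divided among them. It does depend on whether reads matching several genes were dropped or counted more than once, which is not known. In this sum, controls had 28.4, 80.4 and 137 normalised reads and KA libraries 2292, 1804, 1060 and 3801. The means of the sum were 82.0 ± 54.4 (SD, n = 3) and 2239 ± 1158 (SD, n = 4), a ratio of 27.3.

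Levels of different genes were compared as normalised reads per kilobase of exon. In controls Sprr1a stood at 2730 and Sprr4 at 1025, Sprr2a3 at 23.2, and the other 12 members between 0 and 4.86. In KA the order from the top was Sprr1a (7376), Sprr4 (3783), Sprr1b (2504), Sprr2d (2491), Sprr2a3 (551) and Sprr2h (455), and the other 9 members lay between 8.15 and 177. The KA libraries of neighbours in that order overlapped in all 14 pairs, so neighbours in the order are not separated by their spread. The model of Sprr4 holds 231 exonic bases, little more than its coding sequence, and those of the 3 Sprr2a genes hold 2883 to 3003 against 609 to 830 in the others. These lengths raise the per-kilobase level of Sprr4 and lower those of the Sprr2a genes relative to the rest.

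The make-up of the family changed with its total. The 15 genes summed to 2525 ± 191 normalised reads in controls (SD, n = 3) and 13595 ± 2233 in KA (SD, n = 4), a ratio of 5.38. Sprr1a made up 86.9% to 87.4% of the Sprr reads in controls and 32.3% to 58.2% in KA. Sprr2b to Sprr2k together went from 0.0439% to 0.114% in controls to 5.48% to 30.3% in KA, the Sprr2a genes from 1.14% to 5.03% to 8.62% to 29.8%, and Sprr1b from 0.0439% to 0.379% to 11.7% to 20.9%. KA 2, KA 3 and KA 4 had nearly equal family totals, 12402, 12305 and 12741, but divided them differently: all Sprr2 genes took 27.5% in KA 2, 14.1% in KA 3 and 48.9% in KA 4.

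**Figure D2:**
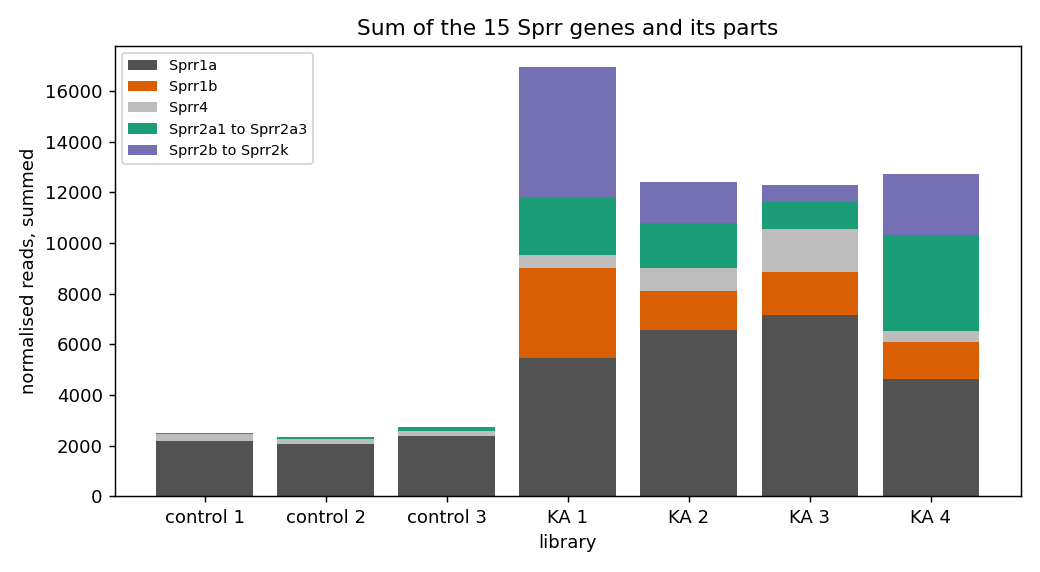
Normalised reads summed over the 15 Sprr genes in each library, split by gene group. Controls total 2347 to 2727, nearly all of it Sprr1a and Sprr4, and KA libraries total 12305 to 16934 with Sprr2 genes making up 14.1% to 48.9% and Sprr1b 11.7% to 20.9% of each bar.

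The spread among the KA mice was uneven over the family. The highest KA library exceeded the lowest by a median factor of 7.25 over the 15 members, against 2.47 over the 199 other listed genes that were at least 8-fold higher. The factor was below that second median for Sprr1a (1.55), Sprr2a3 (2.15) and Sprr1b (2.38) and reached 18.1 for Sprr2a1. Read depth was not matched between these sets, and the difference between them was not tested. All 9 genes from Sprr2b to Sprr2k were highest in KA 1, and 8 of the 9 had the order KA 1, KA 4, KA 2, KA 3. Sprr2k was the exception, with 1 to 11 counts. That same order was found in 30.7% of the other genes at least 8-fold higher and in 18.7% of 3607 genes higher in KA. KA 1 was the highest library in 73.4% of the former, so a high value in KA 1 is common to the table and no feature of the Sprr genes. Among the marker sums that were higher in KA, that of the 3 myeloid markers, which did not move alike, had the same order (575, 514, 416 and 333 in KA 1, KA 4, KA 2 and KA 3). The other sums had other orders: Langerhans markers stood at 51419, 47114, 44377 and 35141 in KA 1 to KA 4, the endothelial marker at 55.4, 40.6, 34.5 and 39.5, sebocyte markers at 37116, 45084, 36491 and 35321, and keratinocyte markers at 1034946, 986470, 949086 and 949902. The part of these cells in the Sprr2 values was not tested.

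Sprr1a and Sprr4 ran the other way across the KA mice. Both were highest in KA 3 and lowest in KA 4, in the order KA 3, KA 2, KA 1, KA 4. Sprr2d was 7.93 times higher in KA 1 than in KA 3, whereas Sprr4 in KA 1 was 0.300 times its level in KA 3. The 3 Sprr2a genes had a further order, KA 4, KA 1, KA 2, KA 3, so that KA 3 was lowest for 11 of the 15 members. KA 3 was also lowest in 68.3% of the 199 other listed genes at least 8-fold higher and in 49.7% of 3607 genes higher in KA. A low value in KA 3 is therefore common to the table, and this count is read no further. These orders rest on 4 animals and carry no test.

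**Figure D3:**
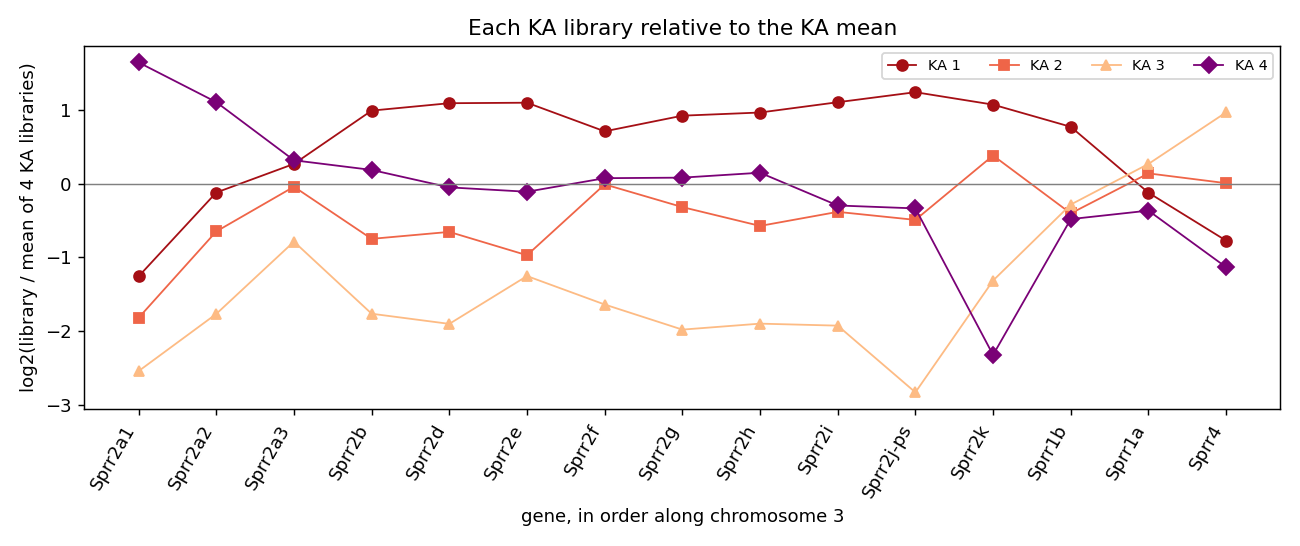
Each KA library relative to the mean of the 4 KA libraries (log2) for the 15 Sprr genes in order along chromosome 3. KA 1 lies above and KA 3 below the mean from Sprr2b to Sprr2j-ps, and the lines cross so that KA 3 is highest at Sprr1a and Sprr4.

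The orders do not follow sex. In 8 of the 9 genes from Sprr2b to Sprr2k the male KA 1 was highest and the male KA 2 next to lowest, with the female KA 4 second and the female KA 3 lowest. When a sex by genotype term was added to the model, none of the 14 tested members had an adjusted p-value under 0.05 by edgeR's quasi-likelihood test, DESeq2 or limma-voom, and none had an unadjusted p-value under 0.05 by any of these tools. The smallest unadjusted p by edgeR was 0.206, for Sprr1b. In Sprr2b, Sprr2e, Sprr2f, Sprr2g and Sprr2j-ps, which had no control read, the term could not be estimated (edgeR SE 2104.32 to 3955.8). Their outcome was fixed by the zeros and says nothing about sex. Sprr2d, with 1 control count, had an SE of 11.47. Over all genes, 0.0445% of 6749 passed. The fit had 1 male control and 3 residual degrees of freedom, and the size of sex difference it could detect in the members was not measured. In KA, sex and the run of animal numbers in the titles coincide and cannot be told apart. Among the 4 animals of the lower run of numbers (2 controls, 2 KA), all 14 tested members passed, as did 90.9% of all genes tested.

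The promoters of the members were compared by the motifs they hold. RefSeq windows of 250 bases before to 50 bases after the gene start (GRCm38.p6) were found for 13 of the 15 members, all but Sprr2g and Sprr2j-ps. The RefSeq start is not always that of the table: the window of Sprr2a2 lies inside its gene model there. The stretches upstream of the transcribed part are shown for a pair of neighbours that were silent in controls (Sprr2d, chr3:92338890-92339139, and Sprr2e, chr3:92351893-92352142, plus strand), for Sprr2a1 (chr3:92215585-92215798, plus strand), and for Sprr1b (chr3:92438790-92439029) and Sprr1a (chr3:92485896-92486131), both on the minus strand. Each is written 5′ to 3′ toward the gene. Capitals mark matches to TGANTCA, a form of the AP-1 site, and to ATTTGCAT, the octamer bound by POU factors.
Sprr2d: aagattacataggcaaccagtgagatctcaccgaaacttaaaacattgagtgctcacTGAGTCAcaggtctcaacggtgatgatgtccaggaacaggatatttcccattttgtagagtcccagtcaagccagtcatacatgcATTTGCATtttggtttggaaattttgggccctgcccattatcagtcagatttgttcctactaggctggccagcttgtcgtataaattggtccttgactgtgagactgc
Sprr2e: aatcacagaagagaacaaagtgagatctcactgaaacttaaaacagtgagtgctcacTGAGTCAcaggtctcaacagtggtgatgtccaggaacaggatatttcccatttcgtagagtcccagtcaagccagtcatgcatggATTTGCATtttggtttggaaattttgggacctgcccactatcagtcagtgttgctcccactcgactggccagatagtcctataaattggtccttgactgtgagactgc
Sprr2a1: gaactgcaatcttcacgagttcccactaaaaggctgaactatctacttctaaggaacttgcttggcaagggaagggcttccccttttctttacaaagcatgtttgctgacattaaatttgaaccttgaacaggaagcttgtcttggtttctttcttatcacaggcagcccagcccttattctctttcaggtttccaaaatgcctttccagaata
Sprr1b: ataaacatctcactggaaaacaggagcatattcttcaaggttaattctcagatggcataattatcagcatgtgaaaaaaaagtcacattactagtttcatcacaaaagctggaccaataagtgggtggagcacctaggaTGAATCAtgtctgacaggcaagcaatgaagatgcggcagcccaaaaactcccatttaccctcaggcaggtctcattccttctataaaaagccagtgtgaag
Sprr1a: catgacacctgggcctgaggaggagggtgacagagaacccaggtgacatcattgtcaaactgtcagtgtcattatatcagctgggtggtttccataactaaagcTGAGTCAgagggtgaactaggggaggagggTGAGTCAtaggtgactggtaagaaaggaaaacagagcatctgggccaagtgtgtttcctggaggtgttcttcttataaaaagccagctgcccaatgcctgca
Sprr2d and Sprr2e carry both motifs at the same places, Sprr2a1 carries neither, Sprr1b carries a single AP-1 match and Sprr1a a pair of them.

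All 7 promoters found from Sprr2b to Sprr2k held TGANTCA, 182 to 198 bases before the start, and ATTTGCAT, 108 to 112 bases before it. Both were searched on both strands. Over all 32851 RefSeq promoter windows of the same length, 7.81% held the first and 1.74% the second. The longest run of bases common to the 7 was ATTTGCATTT, which contains the octamer and was found in 0.225% of all windows. Each of the 7 also had TATAAA 29 bases before the start (13.6% of all windows on either strand). None of the 3 Sprr2a windows held any of these motifs. Only windows at the RefSeq start were scanned, so a start nearer the coding sequence was not covered. The 3 Sprr2a windows held AGGAAG, a core of Ets sites, which is present in 35.4% of all windows and in 2 of the 7 from Sprr2b to Sprr2k. The interferon response element motif was in none of the 13 windows (3.44% of all), and TGACNNNGC, an antioxidant response element, was in Sprr2f and Sprr1a (12.4% of all). The Sprr1a match overlaps its AP-1 match. The promoters from Sprr2b to Sprr2k are 59.4% to 88.7% identical to each other, and the 3 Sprr2a windows 82.9% to 100%. Within each of these groups, matches and their absence are not independent of each other.

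**Figure D4:**
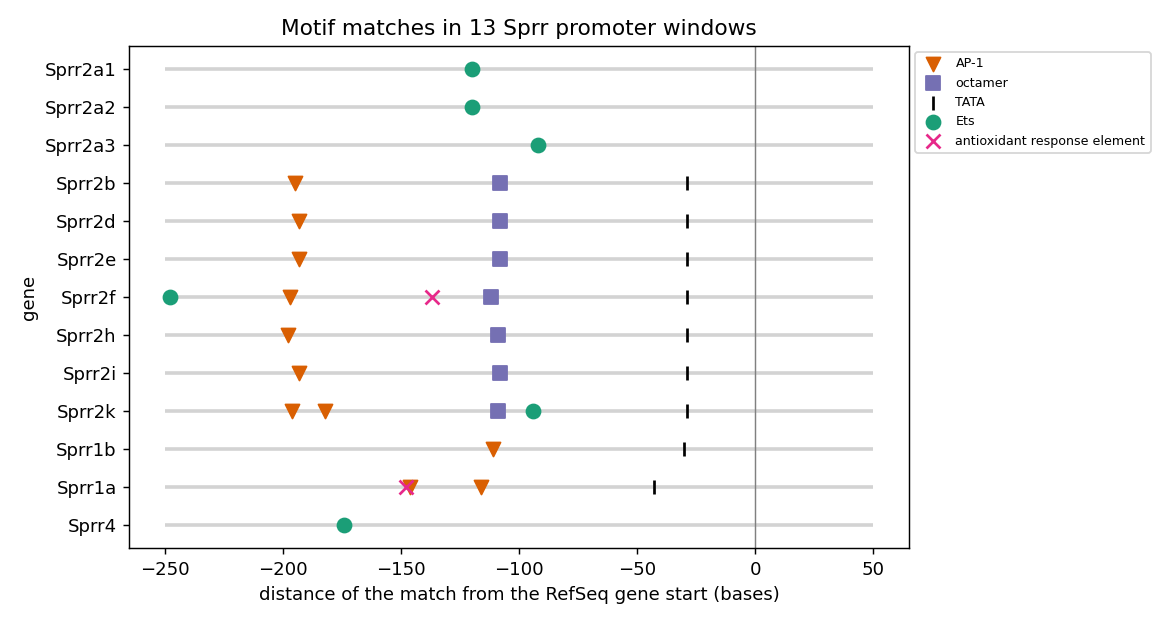
Positions of motif matches in the 13 Sprr promoter windows, as distance in bases from the RefSeq gene start at 0. The 7 windows from Sprr2b to Sprr2k share the AP-1, octamer and TATA positions, which are absent from the 3 Sprr2a windows above them.

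The listed genes around the Sprr block on chromosome 3 did not all rise. Of the 10 other listed genes between the Sprr genes or within 200 kb of them, 3 were higher and 7 lower in KA. Over all genes tested, 52.7% passed as higher, so this count is read no further. Before the block lay Lor, which encodes loricrin, the main protein of the normal envelope, and the gene model Gm43735. Lor fell from 63459, 53087 and 107151 normalised reads in controls to 10995, 20858, 40181 and 10607 in KA, which is -1.85 on the log2 scale (± 0.48 SE, adjusted p = 0.00604 by the edgeR quasi-likelihood test). Like Sprr1a and Sprr4, Lor was highest in KA 3 among the KA libraries. Gm43735 fell from 34.9 ± 4.35 (SD, n = 3) to 3.90 ± 2.96 (SD, n = 4), with an edgeR adjusted p of 0.000248. Within the block, Gm9774 rose from 18.5 ± 8.07 (SD, n = 3) to 39.0 ± 9.56 (SD, n = 4) normalised reads, with an edgeR adjusted p of 0.021. After the block lay 2310046K23Rik and Ivl, which encodes the envelope scaffold protein involucrin. 2310046K23Rik rose by 2.29 on the log2 scale (SE 0.20; edgeR adjusted p = 1.28e-05) and Ivl by 0.71 (SE 0.22; edgeR adjusted p = 0.0112). The 5 listed late cornified envelope genes beyond them, from Lce6a to Lce1c, were all lower.

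**Figure D5:**
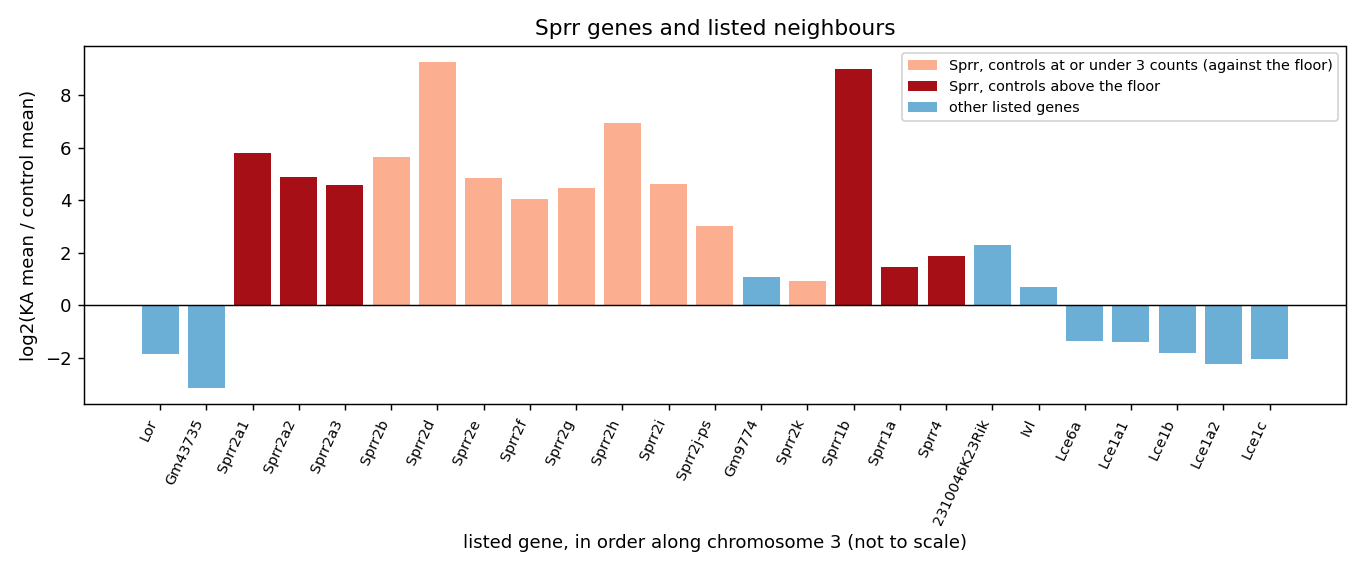
Log2 ratio of KA to control mean normalised reads for the Sprr genes and the 10 other listed genes around them, in order along chromosome 3 (spacing not to scale). Pale bars are ratios against the floor of 3 counts per control library; Sprr2d at 9.25 and Sprr1b at 9.01 are the tallest, and the bars turn negative at Lor and from Lce6a on.

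Other envelope genes moved in both directions. All 3 listed of 4 cross-linking enzymes were higher and passed: Tgm1, the main transglutaminase of the envelope, rose from 1061 ± 113 (SD, n = 3) to 1899 ± 346 (SD, n = 4), Tgm5 from 881 ± 194 to 1373 ± 177 and Tgm3 from 191 ± 110 to 1740 ± 180. Of 20 symbols of other envelope precursors, 12 were listed and tested, 5 of them higher and 7 lower, with a median log2 fold change of -1.30. Lor, Ppl and Cdsn, the most abundant of these by the mean over all libraries, fell. Ppl, which encodes the plakin periplakin, went from 16659 ± 2432 to 7860 ± 1445 and Cdsn, which encodes corneodesmosin, from 6810 ± 1595 to 2396 ± 502. Rptn, Flg, Cnfn, Hrnr and Ivl were the 5 higher ones. Flg rose from a mean of 426 to 3387, Cnfn from 1437 to 3033 and Rptn from 48.1 to 1514. In KA the means of Flg, Cnfn and Ivl (3030) lay above that of Cdsn. Of 21 late cornified envelope genes 14 were listed, 7 higher and 7 lower. Of the 11 tested, 4 passed as higher and 7 as lower, where 52.7% of all genes tested passed as higher. The higher ones were Lce1g and the listed Lce3 genes, all at low levels. Among them, Lce1g rose from 4.47 ± 3.90 to 45.0 ± 14.6 and Lce3c from 5.01 ± 2.08 to 40.0 ± 25.1. The abundant Lce1m fell from 7536 ± 3779 to 83.7 ± 57.8, Lce1a1 from 431 ± 179 to 163 ± 58.8 and Lce1a2 from 500 ± 288 to 105 ± 39.4. In all of these, SDs are over 3 controls and 4 KA libraries, and each named gene passed by edgeR (100% of tested genes passed).

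The 4 keratins of stressed epidermis, which are known to rise with the Sprr genes after injury, were all listed and all higher, by a median of 5.92 on the log2 scale. Krt16 went from 323 ± 93.8 (SD, n = 3) to 96091, 38396, 21201 and 41011 normalised reads in KA 1 to KA 4, and Krt6b from 5.93 ± 5.70 to 26427, 7309, 2075 and 11461. Both had the KA order of Sprr2b to Sprr2j-ps. Krt17 went from 33278 ± 3378 to 139549, 101405, 68293 and 94704, and Krt6a from 451 ± 215 to 22218, 9507, 4072 and 7821. These 2 had KA 2 above KA 4 and so another order, with KA 1 again highest and KA 3 lowest. Of 18 transcription factors known to act on SPRR promoters or to belong to those families, 12 were listed, 5 higher and 7 lower, with a median log2 fold change of -0.50. Over all genes tested, 52.7% passed as higher and 100% in either direction, so these counts are read no further. The most abundant fell: Klf4 from 21752 ± 1778 to 13687 ± 1450, Fos from 12276 ± 3549 to 4184 ± 1383 and Fosb from 10814 ± 367 to 3393 ± 1184. The 5 higher ones were Stat3, Ehf, Nfe2l2, Fosl1 and Elf3. Among them, Stat3 rose from 3794 ± 449 to 7772 ± 1552 and Elf3 from 21.6 ± 10.2 to 213 ± 48.9.

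The genes outside the family whose levels were most like the mean of the 14 tested members over the 7 libraries were Rab31 (Pearson r = 0.9991), Wfdc17 (0.9990), Ska1 (0.9989), Gm25465 (0.9987) and Ehf (0.9982), computed on log2(normalised reads + 1). All 7 points carry the group difference by which the table was chosen, and 15.9% of the 7076 other listed genes had an r above 0.95. Ehf, which encodes an Ets factor of epithelia and is also in the list of transcription factors, had 324, 340 and 356 normalised reads in controls and 4767, 3675, 2514 and 3876 in KA 1 to KA 4. Every KA library of Ehf lay above every control, as in 48.8% of the listed genes. Its log2 fold change was 3.45 (± 0.21 SE, adjusted p = 1.48e-06 by the edgeR quasi-likelihood test). Its KA order was that of Sprr2b to Sprr2j-ps, as was that of the other genes named here. They were picked for likeness over these same libraries, so nothing is read from the order. That order was found in 30.7% of the genes outside the family that were at least 8-fold higher. Rab31, which encodes a small GTPase of membrane traffic, went from 116 ± 7.97 (SD, n = 3) to 1560 ± 516 (SD, n = 4).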

How the data were processed

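Bulk RNA-seq of epidermis from 7 mice (4 KA, 3 control) was used through the single table of the series. Per the file headers it holds raw read counts per gene and normalised reads, a signal scale on which the authors divided each count by the size factor of the library (0.888 to 1.247; recomputed values differed by at most 4.9e-10). Mean signal, log2 fold change with its standard error, a test score, and raw and adjusted p-values were deposited by the authors for genes with an adjusted p up to 0.04995. Per the submitters' processing notes, fastp, STAR 2.6.1d, featureCounts 1.5.0-p3 and DESeq2 1.40.2 were used with build mm10. The annotation, the strand setting and the treatment of reads matching several genes are not given in the sources used here. The authors' adjustment covered 19407 genes, as worked out from their p-values. The number of per-sample columns left unmapped was 0.

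Counts were tested with edgeR 4.0.16 in R 4.3.3 (filterByExpr, authors' size factors, robust glmQLFit and glmQLFTest, Benjamini-Hochberg over 6749 genes, threshold 0.05, common biological coefficient of variation 0.193). The authors' factors were used because TMM and RLE factors from listed genes alone move the median log2 value by -0.139 and -0.176. A standard error was taken as the fitted log2 value divided by the root of its F statistic. Ratios against silent controls use a floor of 3 counts per library, and exact (Clopper-Pearson) intervals have a 95% level. They describe counting error alone, as PCR copies were not marked with molecular identifiers. Alternatives were RLE and TMM factors, other filters, DESeq2 1.42.0, limma-voom (limma 3.58.1), sex, sample number and number run as terms, subsets of animals and stricter thresholds. The code was tested on simulated data. Every Sprr row is named. From each other list at least the members with the 3 highest means are named, with the 5 genes most like the family and the 2 nearest listed genes on each side. The Sprr genes and lists were chosen with earlier results of these data known. Sequences are from RefSeq and GENCODE M21, whose gene positions matched the table for all 15 members.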

Additional observations from a re-analysis of the deposited data

Results flagged for a closer look

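In each of the 15 genes the 4 KA libraries were checked for a value far from the rest, as its gap to the nearest library over the whole range. In 2 genes this share exceeded Dixon's 95% critical value, which about 5% of independent, normally distributed groups do by chance. The values were not put on a log scale and the members are not independent, so that rate need not hold here. The share was 0.916 for Sprr2a1, where KA 4 (1364 normalised reads) was 10.7 times the mean of the other KA libraries. KA 4 was also highest for Sprr2a2 and Sprr2a3, at 458 and 1979. It was 0.894 for Sprr1b, where KA 1 (3544) was 2.23 times the mean of the others. No cause was tested for either.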

How the results depend on the processing

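The number of members higher in KA was 14 of 14 tested. Over the fits that left out each replicate it was 14 of 14 tested or 13 of 13 tested, where 88.3% to 98.8% of all genes tested passed in either direction. Every setting run kept the count within 1.5 times, and none reversed a member. It was 15 without a filter on low counts, where Sprr2k passed as well (edgeR adjusted p = 0.0107), and 11 of 13 among females alone, where Sprr2a1 and Sprr4 did not pass. Over all genes, 99.9% passed without that filter, 4081 (60.7%) among females alone and 6746 (100%) with all animals and the filter. Of the single-gene values with a test under the alternatives, 286 kept direction and call and those 2 lost the call. Ratios against the floor have no test: 7, all from Sprr2b to Sprr2j-ps, were smaller than the fitted values by more than the spread between replicates. The labels do not state whether animals were paired, though the title letters A, B and C recur in both groups. Deviations from the group means correlated at -0.2, 0.139 and -0.097 within same-numbered pairs. The other pairs ran from -0.209 to 0.197, so these values cannot decide on a pairing. KA 4 shares the letter C with KA 3 and control 3 but is left out of the block that follows. With a replicate block over numbers 1 to 3, all 13 members tested were higher, as without KA 4 and no block (90.6% and 97.0% of all genes tested passed). The fitted ratios of Sprr2d, Sprr2e and Sprr2i, which are no sizes, moved by 1.60, 1.61 and 1.62 times without KA 1, and those of Sprr2d and Sprr2i by 3.46 times without control 1, which held the only control count of both. All still passed. Without KA 1 and KA 4 together, an alternative chosen after seeing the data, all 13 tested members passed (84.7% of all genes). No sex by genotype setting called a member, though the term could not be estimated for members without control reads. Unadjusted p-values under 0.05 appeared for 1 member without KA 2, 1 without KA 3 and 2 without KA 4. Sprr2k, at 1 to 11 counts in KA, is too shallow for a size.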
